A study of Mus musculus with 4 samples.

Results

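The type 2 cytokine genes Il4, Il5, Il13 and Csf2, the growth factor gene Areg, the neuropeptide gene Calca, the receptor gene Il1rl1 and the transcription factor gene Gata3 were followed across immune cell types of mouse skin. These 8 genes were listed by name, with no measured value in the rule, out of 31053 genes counted in every library, and all 8 were found in all 4 libraries. CD45+ DAPI- cells were sorted from 2 skins of uninoculated C57/BL6 mice (control skin 1 and 2) and from 2 skin tumors (2323 tumor 1 and 2) that grew in C57/BL6 mice after injection of 2323 cells, and 1 droplet library read from the 3′ end of RNA was made from each. The 2323 line is a single tumor line, so both tumors stand for 1 line, and the injected mice were compared with mice that were not injected. Nothing in the labels beyond the replicate number says how the animals were related. The p-values measure the spread between these libraries, estimated in part from values shared across genes.

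Type 2 immunity is the arm of the immune response that answers parasites, allergens and tissue damage at barriers such as the skin. Damaged epithelium releases the alarmin IL-33, whose receptor ST2 is encoded by Il1rl1 and sits on mast cells, group 2 innate lymphoid cells (ILC2) and many tissue regulatory T cells (Treg). Cells with the GATA3 program answer with IL-4, IL-5 and IL-13, and Treg, ILC2 and epidermal γδ T cells can release amphiregulin, a ligand of the EGF receptor known for its part in tissue repair.

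Cells used, after the filters and the removal of doublets, numbered 2892 and 2994 in the control skins and 4555 and 1954 in the tumors, with a median of 10276 to 13072 unique molecular identifiers (UMIs) per cell and library. Cell types were gated on marker genes that exclude the 8 members, and 9224 of 12395 cells fell in a named gate. Gated mast cells numbered 14 and 35 in the control skins and 30 and 24 in the tumors, and all of them lay in the mast cell cluster of a separate clustering. Dendritic epidermal T cells (DETC, the γδ T cells of mouse epidermis) numbered 564 and 644 against 10 and 23, and gated ILC2 219 and 153 against 11 and 11. In the DETC gate, 22 of 33 tumor cells lay in DETC clusters, against 1124 of 1208 control cells. Only 2 of the 22 tumor cells in the ILC2 gate lay in the ILC2 cluster, against 318 of 372 control cells, and the summed level of the 12 ILC2 markers was 95.3 to 96.9 UMIs per 10000 in the control and 55.2 to 57.3 in the tumor gate, so the tumor gate is named by its rule alone. Gated Treg (T cells with a Foxp3 UMI) numbered 37 and 42 against 121 and 54, and the CD4 T gate (T cells with a Cd4 UMI and none of Foxp3 or Cd8a) 100 and 51 against 143 and 103. Clusters were named after the gate that held the most of their gated cells. Of the 151 control cells in the CD4 T gate, 122 lay in clusters named CD8 T. Those clusters also held 199 of the 229 control cells of the CD8 T gate. Clusters named CD4 T held 3 of the 151 control cells and 119 of the 246 tumor cells. No CD4 T result could therefore be tested with cell types from clusters. No basophil was gated in any library, and 16 of the cell barcodes used were shared by libraries.

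Il4, Il13, Il5 and Csf2 lie on chromosome 11 of GRCm38 within one stretch. Il4 lies at chr11:53602982-53618669 on the minus strand, Il13 12.7 kb beyond it at chr11:53631324-53634702 on the minus strand, Il5 a further 86.1 kb away at chr11:53720794-53725106 on the plus strand, and Csf2 522 kb beyond Il5 at chr11:54247271-54249667 on the minus strand. Il1rl1 is found at chr1:40429570-40465415 on the plus strand, Gata3 at chr2:9857078-9890034 on the minus strand, Areg at chr5:91139599-91148432 on the plus strand and Calca at chr7:114631478-114636357 on the minus strand. RefSeq promoters were found for all 8 members, with 10 start sites in all. The 250 bases before the start of Il5 (chr11:53720544-53720793, plus strand), of Il13 (chr11:53634703-53634952, minus strand) and of the first listed start of Il1rl1 (chr1:40429320-40429569, plus strand) are printed from RefSeq on GRCm38.p6, because Il5 and Il13 were lower in the tumors in more than 1 T cell gate and Il1rl1 moved in opposite directions in mast cells and Treg. Capitals mark the hexamers AGATAA or AGATAG or TGATAA or TGATAG, the letters that GATA factors are known to bind, on either strand.
Il5: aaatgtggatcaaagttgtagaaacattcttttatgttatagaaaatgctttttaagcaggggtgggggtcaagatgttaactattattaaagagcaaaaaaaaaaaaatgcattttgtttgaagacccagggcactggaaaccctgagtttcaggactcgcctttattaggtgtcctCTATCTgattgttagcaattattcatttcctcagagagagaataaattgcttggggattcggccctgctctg
Il13: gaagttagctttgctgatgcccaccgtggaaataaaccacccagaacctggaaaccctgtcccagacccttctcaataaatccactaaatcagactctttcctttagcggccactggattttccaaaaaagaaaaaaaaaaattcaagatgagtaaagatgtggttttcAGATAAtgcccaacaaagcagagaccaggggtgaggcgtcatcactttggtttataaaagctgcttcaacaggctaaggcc
Il1rl1: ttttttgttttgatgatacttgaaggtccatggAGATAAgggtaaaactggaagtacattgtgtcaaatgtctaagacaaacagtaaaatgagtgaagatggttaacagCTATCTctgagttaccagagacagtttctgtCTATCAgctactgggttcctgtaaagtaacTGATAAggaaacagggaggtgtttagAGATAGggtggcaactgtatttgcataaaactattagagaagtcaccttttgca
Each of the Il5 and Il13 windows held 1 match, at 72 and 81 bases before the start, and the first Il1rl1 window held 5. Of 32851 promoter windows of the same length, 26.5% held at least 1 match and 0.0426% (14 windows) held 5 or more. Windows of 7 of the 10 member starts held a match, with none at the starts of Areg and Gata3 or at the second start of Il4. The matches describe letters only, and libraries read from the 3′ end do not tell which start was used.

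Summed over all cells of a library, 6 of the 8 genes were lower in the tumors. The level of Areg was 4.80 and 4.25 UMIs per 10000 UMIs in the control skins and 0.295 and 0.686 in the tumors, a difference of -3.37 ± 0.45 on the log2 scale (SE, n = 2 per group, edgeR quasi-likelihood test with Benjamini-Hochberg adjusted p = 0.0164). Il13 stood at 0.325 and 0.198 against 0.00533 and 0.0169 (-4.77 ± 0.65, edgeR adjusted p = 0.0169), and Il5 at 0.305 and 0.177 against 0.00198 and 0.0123 (-5.36 ± 0.91, edgeR adjusted p = 0.0245). In each of these 3 genes both tumors lay below both control skins. Calca fell by 4.47 on the log2 scale (SE 0.42, edgeR adjusted p = 0.00854), Il4 by a fitted -2.34 ± 0.47 (edgeR adjusted p = 0.0337) and Gata3 by a fitted -2.29 ± 0.31 (edgeR adjusted p = 0.0164). Csf2 measured 0.107 and 0.0948 against 0.0189 and 0.0905 and Il1rl1 0.232 and 0.186 against 0.0928 and 0.209, and neither passed the test (edgeR adjusted p = 0.339 and 0.308). Of all 16361 genes tested, 14.2% were called lower in this comparison. In such sums, fewer cells of a type and less RNA per cell cannot be told apart. The calls were lost without control skin 1, and all but that of Calca were lost without control skin 2. Over all genes, too, no gene or far fewer genes were called in these 2 fits, so the loss is not particular to the members. A fit with 1 library left out has no spread within that group, so calls gained in such fits are not counted.

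The cells that held the transcripts differed between the groups. Gated mast cells held 4.93% and 20.3% of the Il4 UMIs of the control skins and 64.2% and 46.3% of those of the tumors. DETC held 53.2% and 61.2% of Areg UMIs in the control skins, and in the tumors Treg held 34.8% and 26.2% and macrophages 27.0% and 28.8%. ILC2 held 43.7% and 53.8% of Il5 UMIs and 28.2% and 30.6% of Calca UMIs in the control skins, with means of 85.0% and 47.2% when cell types were taken from clusters. In the tumors, Il5 amounted to 13 and 40 UMIs per library and Calca to 107 and 74, so that a few cells set their shares. NK cells held 23.4% and 28.4% of the tumors' Calca UMIs against 0 to 0.208% in the control skins, and the CD8 T gate held 43.0% and 10.8% of them. Cells with markers of several lineages, which went into no test by cell type, held between 0.935% and 71.4% of a member's UMIs in libraries where they held any, and the highest of these shares, that of Il13 in 2323 tumor 1, came from 25 UMIs in 1 cell.

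**Figure D1:**
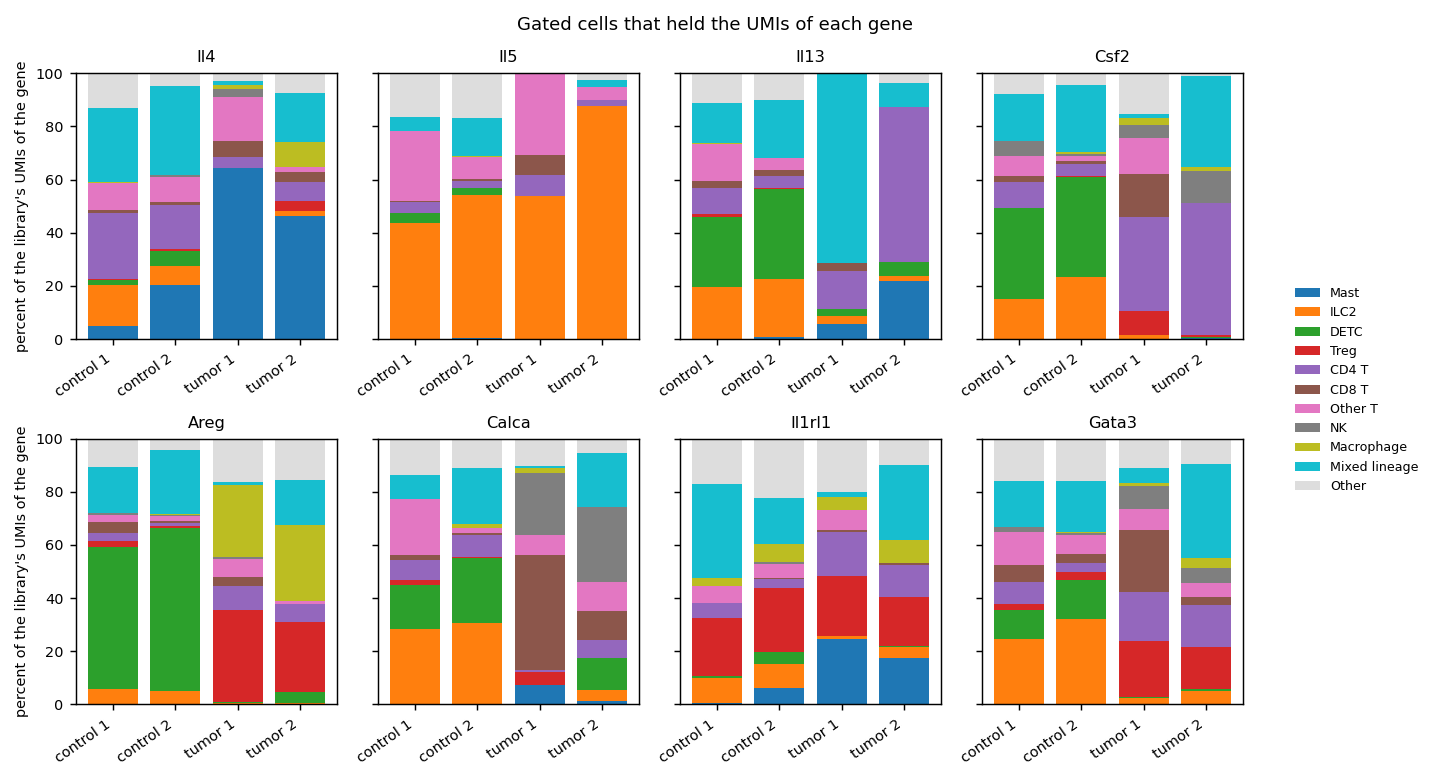
Share of each gene's UMIs (percent of the library's UMIs of that gene, y axis) by marker-gated cell type (colours, with the types not listed in light grey) in control skin 1 and 2 and 2323 tumor 1 and 2 (x axis). Mast cells hold 64.2% and 46.3% of the Il4 UMIs in the tumors, and DETC hold 53.2% and 61.2% of the Areg UMIs in the control skins.

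Within the gated types, 47 pairs of a member and a type passed the filter on low counts, and 20 of them were called, 17 lower and 3 higher in the tumors. Summed over the same types, 3.61% of 75637 pairs of a gene and a type were called lower and 2.78% higher. The 47 pairs lay in 10 of the 13 gated types with at least 10 cells in every library, and in the other types no member passed. Some passed the filter only through the control side, such as Il13 in the remaining T cells (208 UMIs against 0) and Il5 in the CD4 T gate (69 against 2). Such pairs could be called only lower, so nothing is read from the split of 17 to 3. The 20 calls include some in the ILC2 gate, whose tumor side is named by its rule alone.

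Il4, the cytokine that drives B cell class switching to IgE and T helper 2 differentiation, was the member most tied to mast cells. Its level in gated mast cells was 3.02 and 2.64 UMIs per 10000 in the control skins and 3.07 and 2.35 in the tumors. The groups overlapped, and the difference of 0.24 ± 0.43 on the log2 scale did not pass the test (edgeR adjusted p = 0.823), with the direction turned without TMM factors (-0.093) and over cells with at least 2000 UMIs (-0.020). At least 1 Il4 UMI was found in 8 of 14 and 23 of 35 mast cells of the control skins and in 17 of 30 and 13 of 24 of the tumors. When each cell was thinned to 2000 UMIs, the shares were 40% and 56.0% against 25.9% and 20%, from 10, 25, 27 and 20 cells. The UMIs per positive cell were 1.88 and 1.52 in the control and 2.53 and 1.92 in the tumor libraries. No neutrophil of any library, at median depths of 2953 to 4297 UMIs, held an Il4 UMI, where mast cells had medians of 2812 to 4039.

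In the CD4 T gate Il4 took another course. Its level was 0.629 and 0.553 in the control skins and 0.0248 and 0.0430 in the tumors, with positive cells falling from 29 of 100 and 11 of 51 to 3 of 143 and 1 of 103. The difference was -4.21 ± 0.45 on the log2 scale (edgeR adjusted p = 0.000174). Both tumors lay below both control skins, and the call held without each library in turn. Of the 8274 genes tested in this gate, 17.5% were called in either direction, and of the members 7 of 8 were. The tumor effects on Il4 in mast cells and in the CD4 T gate differed by 4.46 ± 0.69 (mast minus CD4 T, edgeR adjusted p = 4.4e-08). In that test of a difference between types, the spread was taken largely from all genes rather than from Il4 alone, and 3.25% of 6092 genes were called. In the ILC2 gate of the control skins, Rora (49.6 and 50.1) and Icos (26.1 and 25.8) made up most of the summed level of the 12 ILC2 markers. That sum, which does not stand for each of the 12, was lower in the tumor cells of the CD4 T gate. It was 52.1 and 52.6 UMIs per 10000 in the control cells of the CD4 T gate and 28.3 and 37.4 in the tumor cells, with 11 and 12 of the 12 detected. The dissociation-responsive heat shock gene Hspa1a stood there at 194 and 15 CPM (counts per 1000000, TMM-scaled) against 2807 and 2035. The part of either in the cytokine, Areg and Calca results of this gate was not tested.

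Il5, which supports eosinophils, was read mostly in ILC2. In the ILC2 gate of the control skins its level was 2.90 and 2.97 UMIs per 10000, with 81 of 219 and 73 of 153 cells positive. The tumor gates held 1.75 and 7.18, which came from 7 UMIs in 1 of 11 cells and 35 UMIs in 1 of 11 cells. The difference of 0.38 ± 0.42 on the log2 scale did not pass the test (edgeR adjusted p = 0.703), and among all ILC2 genes 1.82% were called. For the CD4 T gate, the level was 0.403 and 0.400 in the control skins and 0.00828 and 0.0108 in the tumors, that is 69 UMIs in all against 2. The ratio of control to tumor level was 43.0 (95% counting interval 11.4 to 362), and the fitted difference -5.32 ± 0.59 (edgeR adjusted p = 0.000234). In the remaining T cells, which met none of the other T cell gates, Il5 measured 1.95 and 0.700 against 0.0535 and 0.0952 (-4.40 ± 0.65, edgeR adjusted p = 0.000706), in a gate where 6.5% of 7357 genes were called lower. With cell types from clusters, ILC2 of the control skins held a larger share of the Il5 UMIs than with gates. How far the values of the remaining T cells came from cells in ILC2 clusters was not tested. Macrophages held an Il5 UMI in at most 0.885% of cells of a library, at median depths of 13239 to 16823 UMIs.

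Il13, known for mucus and barrier responses and for alternative activation of macrophages, was spread over more types. In the control skins DETC stood at 0.520 and 0.365 UMIs per 10000 with 185 of 564 and 177 of 644 cells positive, and ILC2 at 1.38 and 1.35. Cells of the CD4 T gate stood at 1.02 and 0.705 in the control skins and at 0.0414 and 0.344 in the tumors (-2.36 ± 0.58, edgeR adjusted p = 0.0170), and the positive cells were 23 of 100 and 9 of 51 against 2 of 143 and 9 of 103. Both tumors lay below both controls, with 2323 tumor 2 nearer to them, and the call was lost without control skin 1 (-1.98, edgeR adjusted p = 0.158) and with DESeq2 (-2.25, adjusted p = 0.373), while the difference was -1.44 without 2323 tumor 1 and -4.48 without 2323 tumor 2. In the CD8 T gate 53 control UMIs stood against 1 tumor UMI, a ratio of levels of 87.0 (95% counting interval 15 to 3501), with an edgeR adjusted p of 0.000286. That gate had 9.49% of 8798 genes called lower, but without 2323 tumor 2, which held 37 of its cells, 0 of 10065 genes were called by edgeR (2618 had an unadjusted p under 0.05), and without control skin 1 the adjusted p of Il13 was 0.0860. With cell types from clusters the difference in CD8 T cells was -2.94. In the remaining T cells Il13 was read at 1.11 and 0.407 in the control skins and in no tumor cell (edgeR adjusted p = 0.000835). A floor of 3 UMIs over both tumors would put the tumor level 27.3-fold lower. That value was 13.0-fold without control skin 1 and 5.98-fold without 2323 tumor 1. The floor takes UMIs as separate draws, whereas control skin 1 held 172 Il13 UMIs in 43 of these cells, so it overstates the bound. In the ILC2 gate 421 control UMIs stood against 2 from the 22 tumor cells, of which 2 lay in the ILC2 cluster. This was not called (edgeR adjusted p = 0.0671). In mast cells it was read at 0.201 and 0.528 against 0.143 and 1.13, too low for the test within that type. In the added fit of both types, the tumor effect on Il13 was 3.02 ± 0.90 higher in mast cells than in the CD4 T gate (edgeR adjusted p = 0.0305). Il13 passed the filter of that fit through the CD4 T gate, and the pair was chosen after the values had been seen. The spread was again taken largely from all genes, so the gap between the tumors in the CD4 T gate had little weight. The mast cell side held 1 and 7 UMIs in the control skins and 2 and 12 in the tumors, the last from 4 cells.

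Csf2, the gene of GM-CSF, showed no called change in any type. In DETC its level was 0.222 and 0.196 in the control skins and 0 and 0.0489 in the tumors, where the 2 libraries held 1 UMI in all. Its level in the CD4 T gate was 0.336 and 0.343 against 0.364 and 1.56 (1.39 ± 0.55, edgeR adjusted p = 0.116), and the tumor value rested on 2323 tumor 2: without it the difference was -0.0033. The positive cells of that gate were 11 of 100 and 8 of 51 in the control skins and 17 of 143 and 20 of 103 in the tumors, and the UMIs per positive cell were 7.25 in 2323 tumor 2 and 2.25 to 3.64 in the other libraries.

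**Figure D2:**
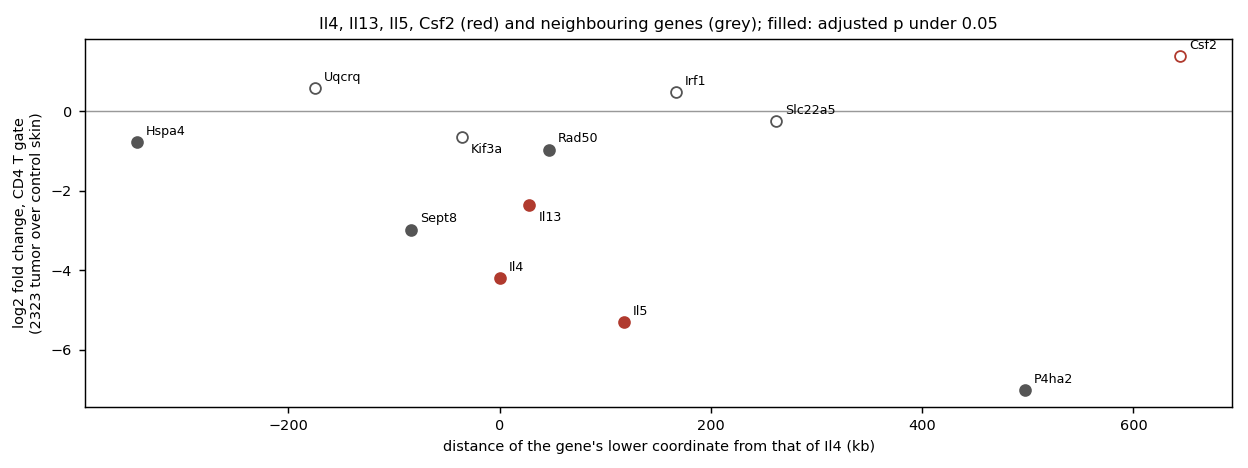
Log2 fold change, 2323 tumor against control skin, in the CD4 T gate (y axis) of the genes around Il4, Il13, Il5 and Csf2 by the distance of each gene's lower coordinate from that of Il4 (x axis, kb), the members in red and their neighbours in grey, with filled points for an edgeR adjusted p under 0.05. Il4, Il5 and Il13 lie at -4.21, -5.32 and -2.36 and Csf2 at 1.39, and the lowest point, P4ha2, was read in neither tumor, so that its value is no bound.

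The neighbours of these cytokine genes were read in the same gate from a list of 14 genes. Of the 8 tested, 4 were lower in the tumors and 0 higher, with a median of -0.70 on the log2 scale against 0.03 over all genes tested. Among all genes tested in this gate, 9.72% were called lower and 7.82% higher. P4ha2, a collagen hydroxylase subunit, was read at 21.2 and 9.39 CPM in the control skins and in neither tumor, and Sept8, a septin, differed by -2.98 ± 0.64 (edgeR adjusted p = 0.00924). Rad50, a DNA repair gene whose body lies between Il13 and Il5, differed by -0.96 ± 0.26 (edgeR adjusted p = 0.0261). These neighbours were chosen with earlier results of the data known, and nothing is read from their count.

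Areg stood highest in DETC of the control skins. Its level in DETC was 15.5 and 14.3 UMIs per 10000 in the control skins, with 378 of 564 and 493 of 644 cells positive. The tumors held 0.632 and 4.40, with 1 of 10 and 14 of 23 cells positive. Both tumors lay below both control skins and apart from each other. The difference of -2.64 ± 0.85 was not called (edgeR adjusted p = 0.631, unadjusted 0.0130), in a type in which 0% of genes were called by edgeR, 757 of 9918 had an unadjusted p under 0.05 and DESeq2 called 55. Without 2323 tumor 1 the difference was -1.92 and without 2323 tumor 2 -4.96, in fits where the gap between the tumors drops out. The summed level of the 9 DETC markers was 87.9 and 84.8 in the control and 40 and 59.5 in the tumor gates. DETC clusters held 1 cell of 2323 tumor 1 in all, so at most 1 of its 10 gated cells lay in them. The part of either in the result was not tested.

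Treg, which use amphiregulin in tissue repair, held Areg in both groups. The level was 9.18 and 4.39 in the control skins and 5.36 and 10.7 in the tumors, and 20 of 37, 25 of 42, 73 of 121 and 31 of 54 cells were positive. The groups overlapped, and the difference of 0.23 ± 0.41 was not called (edgeR adjusted p = 0.819), with the direction turned over all deposited cells (-0.33), with doublets kept (-0.31), by clusters (-0.016) and without control skin 2 (-0.21) or 2323 tumor 2 (-0.33). Langerhans cells of the control skins, the dendritic cells of the epidermis, held an Areg UMI in 8.81% and 6.49% of cells at median depths of 16841 and 17729, against 7392 to 9315 in Treg, and their level was 0.0576 and 0.0669.

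In other lymphocytes Areg was lower in the tumors. In the CD8 T gate it was read at 3.66 and 1.74 in the control skins and at 0.156 and 0.144 in the tumors (-4.34 ± 0.40, edgeR adjusted p = 2.3e-05), which without 2323 tumor 2 became -4.30 with an adjusted p of 0.0986 and with cell types from clusters -1.82 with an adjusted p of 0.0795. NK cells stood at 1.73 and 1.79 against 0.172 and 0, with 4 of 105 tumor cells positive in 2323 tumor 1 and 0 of 58 in 2323 tumor 2, which by a floor of 3 counts allows a share of cells with a UMI of up to 5.17% (-4.06 ± 0.56, edgeR adjusted p = 0.00461, among 1.64% of 5836 genes called lower). DESeq2 did not call it (adjusted p = 0.587), and the fit without 2323 tumor 1 gave -9.28 against a tumor library with no UMI, which is no bound. The CD4 T gate held 4.69 and 4.16 against 1.42 and 1.61 (-1.63 ± 0.21, edgeR adjusted p = 0.000500). In that gate the share of positive cells in 2323 tumor 2, 35%, lay above both control skins at 34.0% and 31.4%, while the UMIs per positive cell were 16.4 and 13.6 in the control skins and 6.58 and 4.17 in the tumors. The remaining T cells differed by -1.31 ± 0.32 (edgeR adjusted p = 0.0168), a call lost without 2323 tumor 2 (-0.99, adjusted p = 0.105) and with 1 marker more in every gate (-1.26, adjusted p = 0.0546), while it was -2.04 without 2323 tumor 1 and -4.58 with cell types from clusters. In the ILC2 gate, where 2 of 22 tumor cells lay in the ILC2 cluster, Areg differed by -1.72 ± 0.35 (edgeR adjusted p = 0.0395). This call was lost without control skin 1 (-1.72) or 2 (-1.61), without TMM factors (-1.43, adjusted p = 0.0549) and with doublets kept (-0.79, adjusted p = 0.269). Dermal γδ T cells, with too few tumor cells to test, were read at 12.3 and 3.05 in the control skins and at 0 in the 12 tumor cells. A floor of 3 UMIs over both tumors would put the tumor level 26.5-fold lower. That value was 9.93-fold without control skin 1, 40.1-fold without control skin 2 and 6.81-fold without 2323 tumor 1. The floor takes UMIs as separate draws, although a cell can hold many, so with 12 tumor cells these values are no bound.

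The tumor effect on Areg in the CD8 T gate lay -3.22 ± 0.73 on the log2 scale from the mean effect of the other types (edgeR adjusted p = 0.0199), where 0.824% of 10799 genes were called. NK cells lay at a similar -3.19 ± 0.87 without being called (edgeR adjusted p = 0.237), and no other type was called in either direction. The CD8 T gate is therefore not shown to stand alone. In pairs of types, chosen after the values had been seen, the effect on Areg differed from that in Treg by -1.79 ± 0.33 in the CD4 T gate (edgeR adjusted p = 0.0261), by -4.18 ± 0.65 in NK cells (edgeR adjusted p = 0.00157) and by -4.14 ± 0.33 in the CD8 T gate (edgeR adjusted p = 0.000257). Over all genes, 0.954%, 1.29% and 0.844% were called in these 3 tests. Macrophages, the holders of 27.0% and 28.8% of the tumors' Areg UMIs, stood at 0.136 and 0.109 in the control skins and 0.131 and 0.436 in the tumors (1.07 ± 0.60, edgeR adjusted p = 0.476), where 0.621% of 12401 genes were called, and without 2323 tumor 2 the difference was -0.10.

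**Figure D3:**
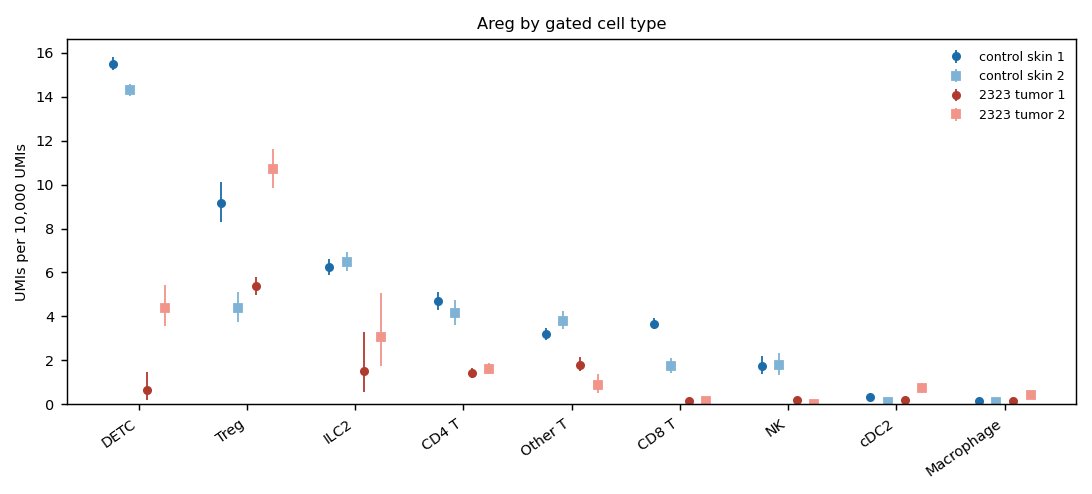
Areg level (UMIs per 10000 UMIs, y axis) in 9 marker-gated cell types (x axis), 1 point per library with its 95% counting interval, control skins in blue and 2323 tumors in red. DETC of the control skins lie at 15.5 and 14.3, and Treg of both groups lie between 4.39 and 10.7.

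Of the EGF family, Areg was the member under study, and 11 other genes of the family and its receptors formed a list. In the CD4 T gate 2 passed the filter, and Hbegf, another EGF receptor ligand, was higher in the tumors by 3.12 ± 0.82 (edgeR adjusted p = 0.0249) from 1.77 and 0 to 12.1 and 10.7 CPM. In the remaining T cells Hbegf was higher by 2.62 ± 0.68 (edgeR adjusted p = 0.0225). Over all cells 1 of 11 tested was higher and 2 lower, with a median of -0.78 against 0.06 over all genes. Among all genes tested there, 9.44% were called higher and 14.2% lower, so nothing is read from these counts. The higher one was Ereg (epiregulin), read at 0.0555 and 0.0256 against 2.88 and 18.4 CPM.

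Calca encodes calcitonin and, in neurons and some lymphocytes, the peptide CGRP, and the counts per gene do not part the 2 products. In ILC2 of the control skins its level was 3.11 and 2.52 UMIs per 10000 with 70 of 219 and 57 of 153 cells positive. The tumor gates held 0 and 0.615, that is 3 UMIs in 1 cell, and the difference was -3.34 ± 0.67 (edgeR adjusted p = 0.0375), lost without control skin 1 (-3.17) or 2 (-3.42) and with doublets kept (-3.43, adjusted p = 0.0706), while without 2323 tumor 2 the tumor side had no UMI. In the CD4 T gate Calca was read at 1.17 and 1.70 against 0.00828 and 0.0538, with 20 of 100 and 15 of 51 cells positive in the control skins and 1 of 143 and 1 of 103 in the tumors. This difference of -5.64 ± 0.46 (edgeR adjusted p = 3.7e-05) had the lowest p of the members in that gate. The remaining T cells differed by -3.02 ± 0.90 (edgeR adjusted p = 0.0436), a value set by control skin 1, which held 2.59 against 0.260 in control skin 2, and the difference was -0.46 without control skin 1 and -1.97 without 2323 tumor 1. DESeq2 did not call it (adjusted p = 0.514).

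In NK cells the values had the other direction and were not called. Their Calca level was 0.0935 and 0 in the control skins and 0.253 and 0.373 in the tumors, with 3 of 31, 0 of 24, 12 of 105 and 4 of 58 cells positive. The difference was 2.43 ± 0.75 on the log2 scale (edgeR adjusted p = 0.131). Without control skin 1 the lone control library held no UMI, and the fit gave 7.24, which is no bound. Against Treg, where the levels were 0.853 and 0.105 in the control skins and 0.0397 and 0 in the tumors, the tumor effect in NK cells differed by 6.68 ± 1.06 (edgeR adjusted p = 0.00171). Macrophages held a Calca UMI in 0 to 0.272% of cells. Of 10 genes of the CGRP receptor and related peptides, Ramp1, a subunit of the CGRP receptor, was higher in the tumors in Treg (4.36 ± 0.47, edgeR adjusted p = 0.00299) and in the CD4 T gate (3.53 ± 0.28, edgeR adjusted p = 3.4e-05), at 1 of 3 and 1 of 4 list genes tested. Among all genes tested, 1.7% in Treg and 7.82% in the CD4 T gate were called higher. Ramp3, a subunit of adrenomedullin receptors, was lower in NK cells by a fitted -5.69 ± 0.79 (edgeR adjusted p = 0.00461) and in the CD8 T gate by a fitted -3.43 ± 0.47 (edgeR adjusted p = 0.000365).

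Il1rl1 was higher in mast cells and lower in Treg of the tumors. In gated mast cells it was read at 0.604 and 3.62 UMIs per 10000 in the control skins and at 10.7 and 11.1 in the tumors. Positive cells numbered 1 of 14 and 8 of 35 in the control skins and 27 of 30 and 24 of 24 in the tumors, and after thinning each cell to 2000 UMIs the shares were 10.0% and 24.0% against 88.9% and 90.0%. Both tumors lay above both control skins, which themselves differed. The difference was 2.48 ± 0.59 on the log2 scale (edgeR adjusted p = 0.0361), in a type where 2.81% of 2029 genes were called higher. The call was lost without control skin 1 (1.89) and without control skin 2 (4.45), each of which leaves 1 control library. Over all genes of this type, too, no gene or far fewer genes were called in these 2 fits. The call was also lost without TMM factors (2.16, adjusted p = 0.0624) and over cells with at least 2000 UMIs (2.33, adjusted p = 0.137). In neutrophils Il1rl1 was read in 1 cell in all.

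Other mast cell genes moved in both directions. The level of Fcer1a, the IgE-binding chain of the high-affinity IgE receptor, was 1.01 and 10.2 in the control and 29.5 and 21.1 in the tumor mast cells, that of the tryptase Tpsb2 21.1 and 39.6 against 115 and 92.5, and that of the tryptase Tpsab1 0.403 and 4.30 against 16.1 and 16.3. Kit stood at 10.1 and 9.73 against 11.3 and 5.82 and the carboxypeptidase Cpa3 at 124 and 139 against 104 and 96.5. Lower in both tumors were also Ms4a2 (4.23 and 4.75 against 3.07 and 2.16), Gata2 (9.06 and 9.96 against 6.92 and 5.63) and Mrgprb1 (13.9 and 14.5 against 7.64 and 7.32). Of the remaining markers, Cma1 and Hdc were higher in both tumors, and Mcpt4 and Mrgprb2 overlapped between the groups. The summed level of the 12 mast cell markers, all of them detected in both groups, was 592 and 771 in the control and 917 and 810 in the tumor gates, and that of 11 macrophage markers 15.9 and 15.2 against 6.07 and 9.86. The part of these differences in the Il1rl1 result was not tested. Il1rap, the co-receptor through which ST2 signals, was lower in tumor mast cells by a fitted -3.59 ± 0.84 (edgeR adjusted p = 0.0338), the only 1 of 9 tested genes called in the list of cytokine receptors and their signaling. Among all genes tested in mast cells, 4.53% were called. Il6 was higher by 2.34 ± 0.57 (edgeR adjusted p = 0.0403). The heat shock genes Hspa1a and Hspa1b, which respond to tissue dissociation, were higher by 4.78 ± 0.55 and 3.38 ± 0.54 (edgeR adjusted p = 0.00268 and 0.00566).

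**Figure D4:**
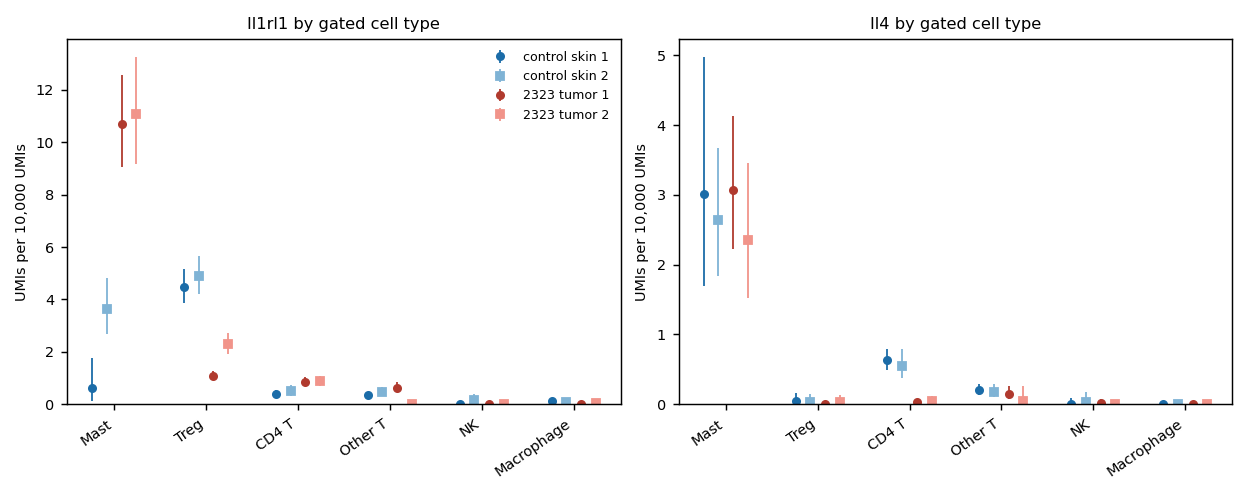
Levels (UMIs per 10000, y axis) of Il1rl1 and Il4 in 6 marker-gated cell types (x axis), 1 point per library with its 95% counting interval, control skins in blue and 2323 tumors in red. Il1rl1 in mast cells lies at 0.604 and 3.62 in control skin and at 10.7 and 11.1 in tumors, while Il4 in mast cells lies between 2.35 and 3.07 in all libraries.

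In Treg Il1rl1 fell. Its level was 4.47 and 4.89 in the control skins and 1.08 and 2.29 in the tumors, with 27 of 37 and 25 of 42 cells positive against 32 of 121 and 12 of 54. After thinning, the shares were 47.2% and 36.6% against 20% and 13.0%, and both tumors lay below both control skins. The difference was -1.51 ± 0.33 (edgeR adjusted p = 0.0443), a type in which 1.57% of 6228 genes were called lower, and it was called in every alternative run. The summed level of the 5 Treg markers was 87.1 and 92.4 in the control and 74.1 and 80.0 in the tumor gates. Foxp3, the gene of the gate, stood at 4.08 and 3.97 against 3.0 and 3.28. Ctla4 was lower at 26.5 and 31.6 against 15.4 and 17.5, and Il2ra at 10.4 and 10.5 against 4.38 and 5.29. Ikzf2 was higher at 37.8 and 39.9 against 43.6 and 47.5, and Tnfrsf4 overlapped between the groups. The part of these differences in the Il1rl1 result was not tested. Hspa1a was higher in tumor Treg too, by 7.1 ± 0.62 (edgeR adjusted p = 0.00258).

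In the CD4 T gate Il1rl1 was read at 0.394 and 0.496 against 0.853 and 0.872 (0.90 ± 0.24, edgeR adjusted p = 0.0267), a call lost without either control skin (0.76 and 0.96, adjusted p = 0.197 and 0.0642) and with DESeq2 (0.88, adjusted p = 0.257). That gate had a summed level of the 5 Treg markers of 7.65 and 10.5 in the control skins and 17.2 and 19.0 in the tumors, whose part was not tested. In the ILC2 gate Il1rl1 was higher on the tumor side by 2.66 ± 0.47 (edgeR adjusted p = 0.0276), at 0.482 and 0.533 against 1.75 and 5.74. This rested on 5 positive tumor cells and was lost without 2323 tumor 2 (1.30), control skin 1 (2.59) or control skin 2 (2.79). Of the 22 tumor cells of that gate, 10 lay in Treg clusters, 8 in clusters of the remaining T cells and 2 in the ILC2 cluster. The tumor effects on Il1rl1 differed between mast cells and Treg by 4.27 ± 0.64 (edgeR adjusted p = 0.00109, with 0.496% of 5446 genes called), between the CD4 T gate and Treg by 2.53 ± 0.37 (edgeR adjusted p = 0.0147) and between mast cells and the CD4 T gate by 1.93 ± 0.58 (edgeR adjusted p = 0.0330).

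Gata3, the transcription factor that defines ILC2 and T helper 2 cells and is also present in other T and NK cells, was highest in ILC2. Its level there was 6.81 and 8.79 in the control skins and 7.51 and 10.3 in the tumor gates, with 169 of 219 and 135 of 153 cells positive against 5 of 11 and 6 of 11. The groups overlapped, and the difference of -0.09 ± 0.28 was not called (edgeR adjusted p = 0.906). Its sign depended on the scaling, since the mean level was higher in the tumor gates and the fit uses TMM factors. In Treg Gata3 was read at 2.54 and 2.78 against 2.07 and 2.88, and the difference of -0.12 ± 0.25 was likewise not called (edgeR adjusted p = 0.858). The CD8 T gate held 1.5 and 1.89 against 0.710 and 0.674 (-1.43 ± 0.23, edgeR adjusted p = 0.00116) and the CD4 T gate 3.26 and 2.38 against 1.91 and 1.69 (-0.74 ± 0.23, edgeR adjusted p = 0.0450). Both tumors lay below both control skins in these gates. The CD8 T call was lost without 2323 tumor 2 (-1.38, adjusted p = 0.0986), and the CD4 T call without control skin 1 (-0.44, adjusted p = 0.360) and without 2323 tumor 2 (-0.69, adjusted p = 0.0598), with DESeq2 (-0.75, adjusted p = 0.135), without TMM factors (-0.65, adjusted p = 0.0573) and with 1 marker more in every gate (-0.70, adjusted p = 0.0546). Langerhans cells of the control skins held a Gata3 UMI in 3.37% and 2.36% of cells.

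**Figure D5:**
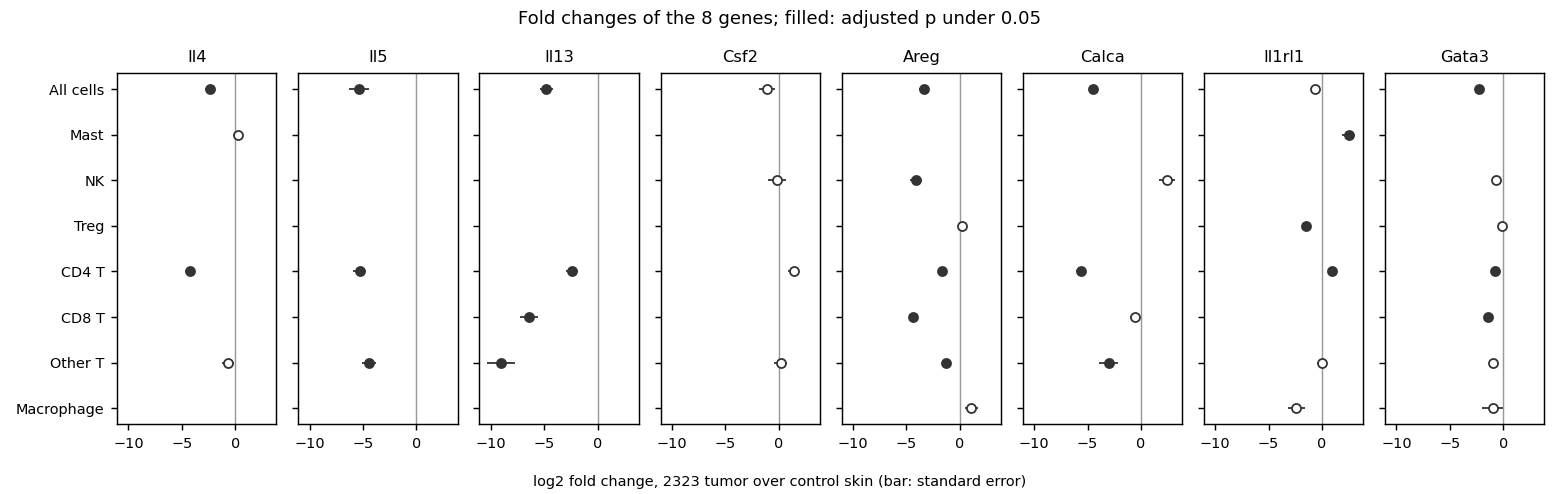
Log2 fold changes of the 8 genes, 2323 tumor against control skin, with SE bars, (x axis) over all cells and in 7 marker-gated types (y axis), filled where the edgeR adjusted p is under 0.05. Il1rl1 lies at 2.48 in mast cells and -1.51 in Treg, and Calca at -5.64 in the CD4 T gate, while the point of Il13 in the remaining T cells rests on tumor libraries with no UMI and is no bound.

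Other genes of type 2 programs were read from fixed lists. Among 13 transcription factors and other regulators of type 2 programs, 12 were tested in the CD8 T gate, of which 6 were lower and 1 higher, with a median of -0.87 against 0.04 over all genes, and in the CD4 T gate 3 of 12 were lower and 2 higher, with a median of -0.27 against 0.03. Over all genes, 9.49% were called lower and 6.24% higher in the CD8 T gate, and 9.72% lower and 7.82% higher in the CD4 T gate. Zfp36l2, an RNA-binding protein of the list, was lower in the CD8 T gate by a fitted -2.52 ± 0.28 and in the CD4 T gate by a fitted -1.66 ± 0.27 (edgeR adjusted p = 0.000104 and 0.00199), and Batf was higher in the CD4 T gate by 1.04 ± 0.32 (edgeR adjusted p = 0.0449). In the list of other cytokines, Ifng, the type 1 cytokine, and Il10 were higher in the CD4 T gate, by 2.05 ± 0.36 and 2.03 ± 0.61 (edgeR adjusted p = 0.00296 and 0.0445), and Xcl1 was lower by a fitted -1.78 ± 0.47 (edgeR adjusted p = 0.0258). Among alarmins and their receptors, Crlf2, the TSLP receptor chain, was higher in the CD4 T gate by 1.16 ± 0.26 (edgeR adjusted p = 0.0105) and Il7r lower in NK cells by a fitted -4.20 ± 0.55 (edgeR adjusted p = 0.00397). Il4ra, the chain shared by the IL-4 and IL-13 receptors, was lower in the CD4 T gate by a fitted -0.98 ± 0.22 (edgeR adjusted p = 0.0123). In macrophages, of the genes that answer IL-4 and IL-13, Cd209a was lower by a fitted -3.44 ± 0.28 (edgeR adjusted p = 0.0130). Among 16 immediate early and dissociation genes, 3 were higher and 9 lower in the CD8 T gate, with a median of -0.89, and 3 were higher and 1 lower in the CD4 T gate, with a median of -0.12, beside the same shares and medians over all genes.

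Single cells of the control skins often held several members. Of 372 cells in the control ILC2 gate, 154 held Il5, 131 Il13 and 80 both, 127 held Calca and 71 of these also Il5, and 143 of the 154 Il5-positive cells held a Gata3 UMI. Of 151 cells in the control CD4 T gate, 40 held Il4, 32 Il13 and 15 both, and 19 of the 35 Calca-positive cells held Il4. Of 54 tumor mast cells, 30 held Il4 and 51 Il1rl1, and 29 held both. These counts share the depth of each cell and are given as a description.

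Across 56 sums of a gated type in a library with at least 10 cells, each member was compared with 14851 genes by Pearson correlation of log2 CPM, as a description over sums that share libraries and cell types. The closest profiles were Lsamp (0.80), Tph1 (0.79) and Fbxo33 (0.78) for Il4, Pard3 (0.82), Igsf5 (0.79) and Dach2 (0.77) for Il5, and Adgrl1 (0.79), Rab4a (0.78) and Phldb3 (0.75) for Il13. Tph1, the serotonin synthesis enzyme, is a mast cell gene. For Csf2 they were Tbc1d22bos (0.75), Apol7e (0.75) and the gating marker Il18r1 (0.73), for Areg Hopx (0.86), Uty (0.85) and Ube2j1 (0.82), and for Calca Gm19557 (0.76), Hspa4 (0.76) and Gm27240 (0.73). For Il1rl1 they were Creb3l2 (0.75), Tmem64 (0.69) and Cdk6 (0.69), and for Gata3 the T cell genes Skap1 (0.95), Tnik (0.94) and Ets1 (0.94). Uty is a sex-linked gene, as is Ddx3y, whose level over all cells was 2.36 and 2.07 UMIs per 10000 in the control skins and 0.966 and 1.29 in the tumors. The part of this difference in the match of Uty with Areg was not tested. Among the members themselves the highest correlations were those of Gata3 with Areg (0.71) and Csf2 (0.71) and of Il5 with Il13 (0.68).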

How the data were processed

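UMI counts per gene and cell were deposited by the authors for each of the 4 libraries, unnormalized, after cell calling by Cell Ranger on mm10 (7.1.0 in the submitters' processing notes, 7.0.1 in the file headers). Libraries held 3499, 3862, 5176 and 2258 cells and 50932896, 52784293, 73904272 and 34893543 UMIs. The study's own cell filters were applied: no fewer than 100 genes and 1000 UMIs, a mitochondrial share of 15% or less, and log10 of the gene number divided by log10 of the UMI number no lower than 0.8. Then the cells with the highest doublet scores were removed, 1% per 1000 cells (453 cells). The score came from simulated doublets, and the study's own doublet tool was not used.

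Cells were gated by counts of marker genes, the member genes excluded, with thresholds set after marker counts had been seen. Counts were summed per library and gate, and gates with at least 10 cells in every library were tested with edgeR 4.0.16 (R 4.3.3; quasi-likelihood test, TMM factors, filterByExpr, Benjamini-Hochberg adjustment over all genes tested, threshold 0.05). Each SE was taken from the log2 fold change and its F statistic. In the planned test of each type against the mean of the others, Areg was the only member with a UMI in both groups of every type, so the others were compared in pairs of types, added after the data were seen. Percentages of positive cells were taken at full depth and after thinning each cell to 2000 UMIs, leaving out shallower cells, and were not tested over cells, since an exact permutation test of 2 against 2 libraries cannot go below 0.333. Intervals of 95% (Clopper-Pearson, exact Poisson) and the floor of 3 UMIs cover counting error only. The Poisson intervals and the floor take UMIs as separate draws, although a cell can hold many. UMIs from free RNA were not removed.

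The members and the gene lists were chosen with earlier results of these data known. Named genes are the 8 members, from each list at most 3 genes per comparison with an adjusted p under 0.05, by absolute log2 fold change, and the 3 genes with the profile most like each member. Same-numbered libraries were not paired: the correlations of their deviations lay between -0.058 and 0.092. In simulated data with a log2 change of 2 in 200 genes, 61.5% were recovered over all cells (16361 genes), 71% in mast cells (2029), 80% in the CD4 T gate (8274), 84.5% in Treg (6228) and 26.5% in DETC (9918). With a change of 3, 66% were recovered for the difference between mast cells and Treg (5446) and 87.5% for that between the CD4 T gate and Treg (8072). Alternatives were DESeq2 1.42.0, no TMM factors, no filter on low counts, a replicate block, each library left out, all deposited cells, doublets kept, stricter gates, cell types from clusters (scanpy 1.11.5) and, added after the data were seen, cells with at least 2000 UMIs. Coordinates are from GENCODE on GRCm38. The genotype of the tumor line is not reported here.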

Additional observations from a re-analysis of the deposited data

Results flagged for a closer look

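Tests of a difference between cell types set apart several effects of the tumor. The effect on Areg in the CD8 T gate lay -3.22 from the mean of the other types on the log2 scale, and against Treg it lay -1.79 in the CD4 T gate, -4.18 in NK cells and -4.14 in the CD8 T gate. The effect on Il1rl1 was 4.27 higher in mast cells than in Treg, 2.53 higher in the CD4 T gate than in Treg and 1.93 higher in mast cells than in the CD4 T gate. Between mast cells and the CD4 T gate the effects differed by 4.46 for Il4 and by 3.02 for Il13. For Il13 the mast cells held 1 and 7 UMIs in the control skins and 2 and 12 in the tumors, too low for the test within that type. Between NK cells and Treg the effects differed by 6.68 for Calca, which was too low for the test within Treg. Treg of 2323 tumor 2 and NK cells of control skin 2 held no Calca UMI, so the size of that difference is no bound. All but the first of these differences came from pairs of types chosen after the values had been seen, with 2 libraries per group.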

How the results depend on the processing

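Over all cells 6 members were called, and 0 to 8 with 1 library left out. Over the gated types 20 were called, 31 with no filter on low counts, 13 with 1 marker more in every gate, 10 with cell types from clusters, and 12 to 30 with 1 library left out, where a lone library was taken to vary like the other group. The stricter gates covered 10 types, which held 17 of the 20 calls, and the clusters 8 types, which held 10. Over all genes and types tested, 5.71% were called in the fit as reported, 5.35% without the filter, 7.09% with the stricter gates and 7.21% by clusters. With numbers as a replicate block, 4 members were called over all cells (Il4 and Il5 lost) and 21 over the gated types. Among all genes, that block called 1945 of 16361 over all cells, against 3872 in the fit as reported, and 6.82% over the gated types. Directions turned for Il4 in mast cells without TMM factors (-0.093) and over cells with at least 2000 UMIs (-0.020), and for Areg in Treg over all deposited cells (-0.33), with doublets kept (-0.31) and by clusters (-0.016). With 1 library left out, Areg in Treg ranged from -0.33 to 0.86, Gata3 in Treg from -0.35 to 0.12, Areg in macrophages from -0.10 to 1.75, Csf2 in the CD4 T gate from -0.0033 to 2.12 and Calca in the CD8 T gate from -0.79 to 0.022. Of the other comparisons of 41 single log2 fold changes with an alternative, 403 kept direction and call, 53 lost and 20 gained the call. The 41 are not all of the member values tested, so these counts do not cover every value. Differences in thinned percent of positive cells, tumor minus control, moved for Il1rl1 in mast cells from 72.4 points to 55.8 when thinned to 1000 UMIs and 53.6 for at least 2 UMIs, for Il4 in mast cells from -25.0 to -10.2 and -9.30, for Il4 in the CD4 T gate from -7.94 to -3.96 under both and 0.521 by clusters, for Areg in Treg from 6.17 to -1.48, 3.22 and 3.20 by clusters, for Il13 in CD4 T cells from -6.51 to -21.9 by clusters and for Areg in CD8 T cells from -6.41 to -1.72 by clusters. The CD4 T clusters held 1 and 2 control cells. By clusters, control ILC2 held 85.0% of Il5 UMIs (48.8% by gates), 47.2% of Calca (29.4%) and 42.6% of Gata3 (28.1%), and tumor Treg 44.6% of Areg (30.5%). The cause was not tested. With 10 to 24 cells in some gates, depth and cell number limit values from ILC2, DETC and mast cells.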
